A study of Mus musculus with 27 samples.

Results

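Hepatic stellate cells (HSCs) are the vitamin A storing pericytes of the liver sinusoid that turn into collagen producing myofibroblasts after injury. Described here are 10 genes of the ATF4 stress response and of serine synthesis in these cells, namely Atf4, Atf5, Ddit3, Asns, Trib3, Chac1, Psat1, Phgdh, Shmt2 and Sesn2. They were taken by name out of 53379 genes counted, for their known roles and with earlier results of these data known. The counts and medians below therefore describe the 10 genes and are not an independent test. Each gene was followed through all 27 libraries.

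The libraries came from male Balb/c mice. Injured mice received carbon tetrachloride (CCl4), a hepatotoxin that hepatocytes convert into a radical, intraperitoneally in mineral oil at 0.5 µL per gram body weight. For acute injury, mice aged 10 to 12 weeks were injected a single time and HSCs were isolated after 24 h (acute 24h, n = 3), 72 h (acute 72h, n = 4) or 7 days (acute 7d, n = 4). For chronic injury, mice aged 8 to 10 weeks were injected semi-weekly for 4 weeks and HSCs were isolated 24 h (chronic 24h), 72 h (chronic 72h) or 14 days (chronic 14d) after the last injection, with n = 4 each. Healthy mice aged 10 to 12 weeks (n = 4) received nothing, so that CCl4 and its oil vehicle cannot be told apart. HSCs were taken by cell sorting for the retinoid signal under ultraviolet light and lysed without culture. HSCs without this fluorescence were therefore not sorted for, while markers of other liver cells were still detected, as given below. The labels do not state which library came from which mouse, and p-values measure the spread between libraries.

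ATF4 is a transcription factor whose protein output is set mainly by translation. When a stress kinase phosphorylates the initiation factor eIF2, general translation slows while the Atf4 messenger is translated more, and ATF4 then switches on genes for amino acid synthesis and uptake, for charging of transfer RNAs and for one-carbon metabolism. The messenger counts below therefore do not measure ATF4 protein. In the serine pathway, PHGDH and PSAT1 make serine from a glycolytic intermediate and SHMT2 passes its carbon to folate inside mitochondria, which feeds nucleotide synthesis, glutathione and, through glycine, collagen.

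ATF4 binds with C/EBP partners to a composite element whose core letters are TGATGNAA, or TTNCATCA when read on the other strand. This element was searched on both strands in RefSeq promoter windows (build GRCm38.p6, 250 bases before to 50 after each start site). All 10 genes had at least 1 window (12 windows in all). A match was held by 3 of the 12 windows, each of a different gene, beside 3.97% of 32851 windows overall. The matches are shown because ATF4 is known to act through this element, with the 8 matching bases in capitals and the gene's own strand written 5′ to 3′.
Asns (chr6:7693214-7693243, minus strand, match beginning 23 bases before the start site): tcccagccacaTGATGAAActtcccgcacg
Chac1 (chr2:119351038-119351067, plus strand, match beginning 193 bases before the start site): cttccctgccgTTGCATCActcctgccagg
Trib3 (chr2:152344028-152344057, minus strand, match beginning 15 bases after the start site): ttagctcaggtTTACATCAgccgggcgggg
The windows of Atf4, Atf5, Ddit3, Phgdh, Psat1, Sesn2 and Shmt2 did not hold these letters. A match is a description of the sequence and not a binding site.

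Total counts per library lay between 6314801 and 13052838. A group of 8 libraries was less deep, at 6314801 to 7580709 counts, namely chronic 24h replicates 1 and 2, chronic 72h replicates 1 and 2 and all of chronic 14d, whereas the rest held 10792560 or more. No chronic 14d library is as deep as any healthy library, so that these groups could not be compared within a depth class, and a fit with depth as a term rests on the chronic 24h and chronic 72h libraries. All 8 HSC markers (such as Lrat, Reln and Des) were detected in every group, with a summed normalised read count of 21100 to 34700 CPM (counts per 1000000 counts of a library) in healthy HSCs and between 13000 and 25700 in the injured groups. Markers of other liver cells were present and moved between groups. The 8 hepatocyte markers summed to 479 to 2960 CPM in healthy and 54 to 252 in acute 24h libraries, the 8 macrophage markers to 147 to 607 in healthy and 4040 to 10600 in acute 7d, and the 6 markers of dividing cells to 15.3 to 38.9 in healthy and 256 to 475 in acute 72h. In bulk libraries, fewer cells of a type and less RNA per cell cannot be told apart.

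CPM were taken on library totals after TMM scaling, a correction for differences in composition between libraries. Groups were compared with edgeR's quasi-likelihood test, fitted on 18758 genes in all 27 libraries. A gene passed at a Benjamini-Hochberg adjusted p under 0.05 over all genes tested, with no minimum fold. All 10 genes passed the filter for depth and were tested. Phgdh passed it only through injured groups, since it had no count in any healthy or chronic 14d library. Against healthy, Phgdh could therefore only be called higher. Asns and Trib3, with at most 3 and 9 counts in any healthy library, also passed the filter only through injured groups. That favours calls of these genes as higher than healthy.

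The 10 genes differed widely in level. Per kilobase of exon and averaged over the 27 libraries, Atf4 was read at 90.7 CPM, Ddit3 at 21.9, Sesn2 at 10.1, Shmt2 at 9.67, Atf5 at 5.65 and Psat1 at 2.57, while Trib3 (0.588), Chac1 (0.533), Asns (0.463) and Phgdh (0.173) lay below 1 CPM per kilobase. For the last 4 genes many libraries held fewer than 10 reads, and their folds carry wide errors.

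**Figure D1:**
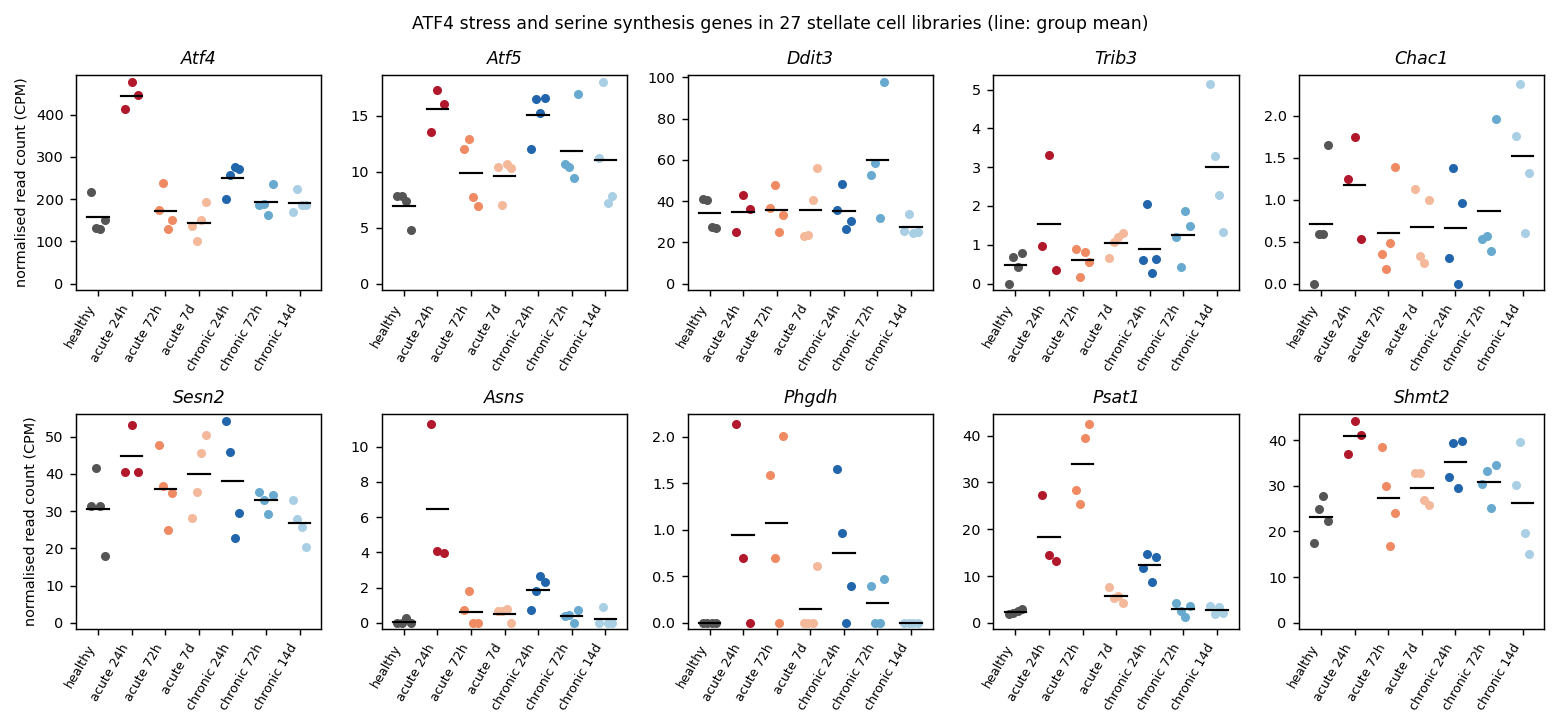
Normalised read count (CPM, linear axis, a separate scale for each gene) of the 10 genes in each of the 27 libraries, by group, with a line at the group mean. Atf4 and Asns stood highest in acute 24h, Psat1 in acute 72h, and Trib3 had its highest mean in chronic 14d.

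The first question was how these genes stood 1 day after a single injury. At acute 24h, 6 of the 10 genes rose over healthy HSCs (Atf4, Atf5, Asns, Phgdh, Psat1 and Shmt2) and none fell, beside 15.5% of all genes tested that rose and 18.1% that fell. The median log2 fold change of the 10 genes was 1.34, beside -0.12 over all genes. In 5 of the 6, all but Phgdh, every acute 24h library lay above every healthy library, which held for 19.7% of all genes tested. DESeq2 called the same 6. No member was lower at an unadjusted p under 0.05, or by DESeq2, in any of the 6 comparisons with healthy.

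Atf4, the transcription factor itself (ENSMUSG00000042406, chromosome 15, 80255184 to 80257541, plus strand), was read at 217, 131, 130 and 150 CPM in the healthy libraries and at 413, 476 and 446 CPM at acute 24h. The groups did not overlap. Atf4 rose from 157 ± 40.8 (SD, n = 4) to 445 ± 31.6 CPM (SD, n = 3), or by 1.5 ± 0.22 on the log2 scale (SE, edgeR adjusted p = 1.29e-05).

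Atf5, a related transcription factor that is itself controlled by eIF2 (chromosome 7, 44812256 to 44816658, minus strand), was read at 7.80, 7.80, 7.33 and 4.77 CPM in healthy HSCs. At acute 24h it stood at 13.5, 17.3 and 16.0 CPM, all above healthy, which is 1.17 ± 0.29 on the log2 scale (edgeR adjusted p = 0.00282). Of its exon bases, 4.11% overlap Nup62 and Il4i1 on the opposite strand, and whether reads were counted by strand is not stated.

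Asns, which makes asparagine and is a classical ATF4 target, was nearly unread in healthy HSCs, with 0, 0, 3 and 0 counts. Its acute 24h libraries held 127, 47 and 45 counts, or 11.3, 4.08 and 3.95 CPM. The groups did not overlap, and the ratio of summed counts, corrected for library size, was 95.6 with an exact 95% interval of 32.3 to 467 that covers counting error only. The edgeR log2 fold change was 6.37 ± 1.46 (adjusted p = 0.00156). Asns is 1 of the 3 genes with a promoter match printed above. Trib3 and Chac1 also held a match and did not pass at acute 24h, while Atf4, Atf5, Phgdh, Psat1 and Shmt2 rose without one.

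Psat1, the aminotransferase of serine synthesis (chromosome 19, 15904678 to 15947337, minus strand), was read at 1.99, 2.05, 2.53 and 2.86 CPM in healthy HSCs and at 27.4, 14.5 and 13.3 CPM at acute 24h. That was a 7.76-fold rise (log2 fold change 2.96 ± 0.34, edgeR adjusted p = 8.09e-07). Dividing-cell markers summed to 7.64 to 22.9 CPM in acute 24h against 15.3 to 38.9 in healthy libraries. The part of cell division in the Psat1 level was not tested.

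Phgdh, the first enzyme of the pathway, had no count in any healthy library and 24, 8 and 0 counts at acute 24h. The groups overlapped at 0. Taking 3 counts over the healthy group as the floor, the fold was 14.0, a value that leaves out the spread between libraries. The call (edgeR adjusted p = 0.0368) was lost on leaving out any of 6 of the 7 libraries, all but acute 24h replicate 3, and on the 2 groups alone (adjusted p = 0.088). In addition, 35.8% of the 75-base stretches of its transcripts also occur in transcripts of 13 other genes, Gm7901 among them, so that its counts are uncertain.

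Shmt2, the mitochondrial serine hydroxymethyltransferase, rose from 17.4, 25.0, 27.8 and 22.4 CPM to 37.0, 44.3 and 41.1 CPM. This was a log2 fold change of 0.82 ± 0.26 (edgeR adjusted p = 0.0176), with no overlap. The call was lost without healthy replicate 1 or without acute 24h replicate 2, at log2 fold changes between 0.70 and 0.92 over the 7 libraries left out in turn.

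The other 4 genes did not pass at acute 24h. Ddit3, which encodes the pro-apoptotic factor CHOP, stood at 34.7 ± 9.10 CPM (n = 3) against 34.1 ± 7.79 (n = 4), a log2 fold change of 0.02 ± 0.33 whose sign changed with the scaling. Sesn2, a stress inducible inhibitor of mTORC1, had a log2 fold change of 0.54 ± 0.28. Trib3, a pseudokinase, had 11, 38 and 4 counts against 0, 7, 5 and 9, and Chac1, which degrades glutathione, 14, 20 and 6 against 0, 6, 7 and 19.

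**Figure D2:**
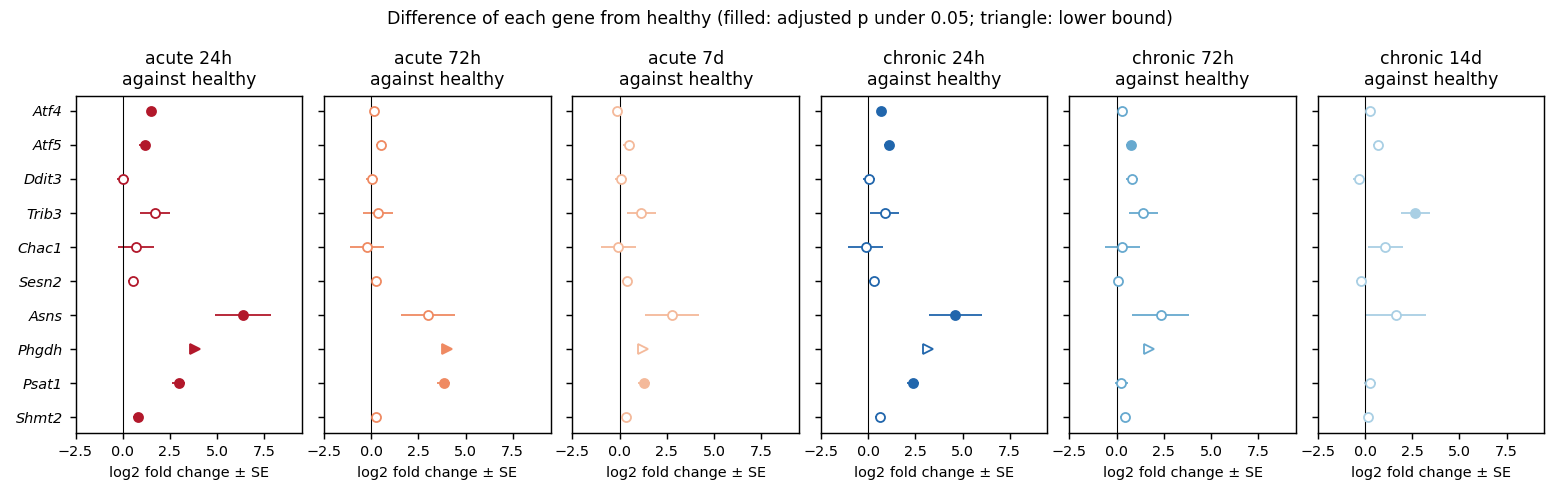
Log2 fold change (horizontal axis, points with SE bars) of each gene in the 6 injured groups against healthy, with filled symbols where the edgeR adjusted p was under 0.05. Phgdh, at 0 counts in all healthy libraries, is drawn as a triangle at its lower bound and is left out of chronic 14d, where both groups are at 0. Most filled symbols fall in acute 24h (6) and chronic 24h (4).

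The acute time course then asked how long these changes lasted. At acute 72h, 2 of the 10 genes (Psat1 and Phgdh) were higher than in healthy HSCs and none was lower, beside 13.1% of all genes higher and 8.81% lower. At acute 7d only Psat1 was higher and none was lower, beside 13.1% higher and 10.6% lower over all genes. The median log2 fold change of the 10 genes was 0.30 at 72 h and 0.42 at 7 days, beside 0 and 0.01 over all genes.

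Atf4 again overlapped healthy, with 174, 237, 129 and 151 CPM at acute 72h and 136, 99.7, 150 and 192 CPM at acute 7d. Its log2 fold change from healthy was 0.14 ± 0.20 and -0.12 ± 0.20. Asns held 8, 21, 0 and 0 counts at acute 72h and 8, 8, 10 and 0 at acute 7d, which overlapped the healthy libraries and did not pass (edgeR adjusted p = 0.137 and 0.171). Shmt2 (27.3 ± 9.13 and 29.6 ± 3.81 CPM, n = 4 each) and Atf5 (9.87 ± 3.00 and 9.60 ± 1.70 CPM) did not pass either.

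Psat1 followed another course. Its acute 72h libraries held 28.3, 25.3, 39.4 and 42.6 CPM, a 14.3-fold rise over healthy (log2 fold change 3.84 ± 0.34, edgeR adjusted p = 8.7e-08), and overlapped those of acute 24h. At acute 7d it had come down to 7.76, 5.33, 5.80 and 4.21 CPM but still lay above every healthy library (log2 fold change 1.29 ± 0.32, adjusted p = 0.00499). The 6 dividing-cell markers, all of which passed as higher at acute 72h, summed to 256 to 475 CPM there and to 30.6 to 128 at acute 7d. At acute 7d macrophage markers were also high, at 4040 to 10600 CPM. The part of either in the Psat1 level was not tested. Phgdh held 18, 8, 0 and 26 counts at acute 72h, 16.1-fold over the healthy floor of 3 counts (edgeR adjusted p = 0.0405). That call was lost without any of 7 of the 8 libraries, all but acute 72h replicate 3.

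Compared directly, acute 7d HSCs had lower Atf4, Asns and Psat1 than acute 24h HSCs, and no member was higher, beside 22.6% of all genes higher and 17.4% lower. Atf4 fell by 1.62 on the log2 scale (SE 0.22, edgeR adjusted p = 4.18e-06) and Psat1 by 1.67 (SE 0.32, adjusted p = 0.000283). Asns fell by 3.59 (SE 1.19, adjusted p = 0.0195), a call that was lost without acute 24h replicate 1, its highest library. In Atf5 and Shmt2 as well, every acute 7d library lay below every acute 24h library, at log2 fold changes of -0.70 (adjusted p = 0.0546) and -0.46 (adjusted p = 0.162).

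Chronic injury tested whether HSCs from a liver injured for 4 weeks still answered in these genes. At chronic 24h, 4 of the 10 genes rose over healthy (Psat1, Atf5, Asns and Atf4) and none fell, beside 17.1% of all genes higher and 14% lower. Their median log2 fold change was 0.78, beside -0.03 over all genes. DESeq2 called the same 4. Among the deeper libraries alone, these 4 passed as well.

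Atf4 was read at 200, 257, 276 and 271 CPM at chronic 24h, overlapping healthy in 1 library on each side. The mean of 251 ± 35.3 CPM corresponded to a log2 fold change of 0.68 ± 0.20 (edgeR adjusted p = 0.0135), and to 0.80 ± 0.27 among the deeper libraries (adjusted p = 0.0381). Atf5 stood at 12.0, 16.5, 15.2 and 16.6 CPM, above every healthy library (log2 fold change 1.12 ± 0.27, adjusted p = 0.00287).

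Psat1 rose to 11.7, 14.7, 8.77 and 14.1 CPM, a 5.19-fold difference without overlap (log2 fold change 2.38 ± 0.33, edgeR adjusted p = 5.93e-06). Dividing-cell markers summed to 9.52 to 25.5 CPM in these libraries against 15.3 to 38.9 in healthy libraries, and their part in the Psat1 level was not tested. Asns held 5, 13, 30 and 29 counts, all above healthy, a ratio of 30.3 (exact 95% interval 9.99 to 150, counting error only) and a log2 fold change of 4.61 ± 1.41 (adjusted p = 0.015). Macrophage markers stood at 516 to 3580 CPM at chronic 24h against 147 to 607 in healthy, and their part in these differences was not tested.

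Phgdh and Shmt2 missed the threshold at chronic 24h. Phgdh held 11, 7, 0 and 5 counts (at least 9.05-fold, edgeR adjusted p = 0.0503). Shmt2, at 31.9, 39.4, 29.6 and 39.9 CPM, lay above every healthy library by 0.61 ± 0.24 on the log2 scale (adjusted p = 0.063). Ddit3, Sesn2, Trib3 and Chac1 had log2 fold changes of 0.05 ± 0.31, 0.31 ± 0.26, 0.87 ± 0.78 and -0.12 ± 0.93, of which those of Ddit3 and Sesn2 changed sign when depth entered the fit.

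During recovery, few of the 10 genes differed from healthy. At chronic 72h only Atf5 passed, as higher, beside 11% of all genes higher and 9% lower, and the 10 genes had a median log2 fold change of 0.60. Its libraries held 10.7, 10.4, 9.42 and 16.9 CPM (log2 fold change 0.78 ± 0.27, edgeR adjusted p = 0.045), all above healthy, but the call was lost without any of 7 of the 8 libraries, all but chronic 72h replicate 3. Ddit3 reached 52.4, 58.4, 31.8 and 97.6 CPM, its highest group mean, without passing (log2 fold change 0.82 ± 0.31, adjusted p = 0.0651). DESeq2 and scaling by library size alone called it higher, and so did the fit without chronic 72h replicate 3. Of its exon bases, 105 are shared with a second gene entry named Ddit3 on the same strand and 68 with Mars on the opposite strand. At chronic 72h macrophage markers summed to 988 to 2710 CPM against 147 to 607 in healthy libraries (6 of 8 higher), hepatocyte markers to 1950 to 3570 against 479 to 2960, and all 4 neutrophil markers tested were higher, at up to 27.1 CPM in sum. Their part in the levels of Atf5 and Ddit3 was not tested.

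At chronic 14d only Trib3 passed, as higher, beside 5.12% of all genes higher and 3.49% lower. Trib3 held 38, 25, 19 and 9 counts (5.13, 3.29, 2.29 and 1.32 CPM) against 0, 7, 5 and 9 in healthy HSCs (0, 0.683, 0.421 and 0.780 CPM), and the groups did not overlap. The log2 fold change was 2.65 ± 0.77 (edgeR adjusted p = 0.0338). The call was lost without healthy replicate 1, 2 or 3 or chronic 14d replicate 1 or 2, and when depth was a term of the fit. Hepatocyte markers summed to 1400 to 6780 CPM in chronic 14d against 479 to 2960 in healthy libraries, and macrophage markers to 778 to 1990 against 147 to 607. All 4 B cell markers and all 4 neutrophil markers tested passed as higher, at summed levels of at most 38.0 and 47.7 CPM. The part of these cells was not tested. Atf4, at 170, 224, 185 and 185 CPM, Psat1, at 3.65, 1.97, 3.37 and 2.20 CPM, and Asns, at 0, 7, 0 and 0 counts, overlapped healthy, and Phgdh had no count in any chronic 14d library.

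Set directly against chronic 24h, chronic 14d HSCs had lower Psat1 and no other difference that passed among the 10 genes, beside 10.1% of all genes higher and 12.9% lower. Psat1 fell by 2.13 on the log2 scale (SE 0.33, edgeR adjusted p = 5.57e-05) without overlap, and by 2.23 (SE 0.34, adjusted p = 0.0072) among the less deep libraries alone.

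The last comparison asked whether the first day after injury differed between a liver hit a single time and one injured for 4 weeks. Atf4 was lower at chronic 24h than at acute 24h, and no other member passed in either direction, beside 14% of all genes higher and 7.32% lower. Its difference was -0.82 ± 0.22 on the log2 scale (251 against 445 CPM, edgeR adjusted p = 0.00812), and none of the 4 chronic libraries reached the lowest acute library at 413 CPM. Among the deeper libraries, which left 2 chronic 24h libraries, the difference was -0.70 ± 0.30 and did not pass (adjusted p = 0.126). Asns also did not overlap between the groups (1.87 ± 0.826 against 6.45 ± 4.21 CPM) but did not pass (log2 fold change -1.76 ± 1.11, adjusted p = 0.282). Atf5 was close in both, at 15.0 ± 2.13 and 15.6 ± 1.90 CPM, with a log2 difference of -0.05 ± 0.29. Age also differed between the groups compared.

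Across the 7 groups, Atf4 ranked from acute 24h, which overlapped no other group, through chronic 24h (200 to 276 CPM), chronic 72h (162 to 236), chronic 14d (170 to 224), acute 72h (129 to 237) and healthy (130 to 217) to acute 7d (99.7 to 192), and each neighbour after the first overlapped the next. Psat1 ranked from acute 72h (25.3 to 42.6) through acute 24h (13.3 to 27.4) and chronic 24h (8.77 to 14.7), which overlapped in sequence, to acute 7d (4.21 to 7.76). It then came to chronic 72h (1.25 to 4.13), chronic 14d (1.97 to 3.65) and healthy (1.99 to 2.86), which overlapped one another and lay below acute 7d.

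The kinases and the target of the pathway upstream of ATF4 were followed through a list of 7 genes. At acute 24h and at acute 72h 3 of the 7 rose and none fell (median log2 fold changes 0.33 and 0.14), at acute 7d 1 rose, at chronic 24h 4 rose and none fell (median 0.51), and at chronic 72h and chronic 14d none passed. Over all genes, 15.5% rose and 18.1% fell at acute 24h, 13.1% and 8.81% at acute 72h, and 13.1% and 10.6% at acute 7d. These shares came to 17.1% and 14% at chronic 24h, 11% and 9% at chronic 72h and 5.12% and 3.49% at chronic 14d. Eif2s1, the eIF2 subunit that is phosphorylated, rose from 72.4 ± 15.4 (n = 4) to 143 ± 14.5 CPM (n = 3) at acute 24h (log2 fold change 0.98 ± 0.15, edgeR adjusted p = 2.24e-05). Eif2ak2, the kinase PKR that senses double-stranded RNA, rose by 0.78 ± 0.21 at acute 24h, 1.03 ± 0.20 at acute 72h and 0.95 ± 0.20 at chronic 24h on the log2 scale. Eif2ak3, the endoplasmic reticulum kinase PERK, passed only at chronic 24h (0.71 ± 0.22, adjusted p = 0.0145), beside -0.02 ± 0.23 at acute 24h. Eif2ak4 (GCN2, the sensor of uncharged transfer RNA) and the phosphatase subunits Ppp1r15a and Ppp1r15b passed at neither time. Eif2ak1, another eIF2 kinase, rose by 0.59 ± 0.11 at acute 24h, 0.46 ± 0.10 at acute 72h and 0.29 ± 0.10 at acute 7d on the log2 scale. It also passed as higher at chronic 24h. Its acute 7d call was lost with no filter and without healthy replicate 1.

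Of 21 genes for cytosolic aminoacyl-tRNA synthetases, which charge transfer RNAs, and the transfer RNA exporter Xpot, 14 rose and none fell at acute 24h (median log2 fold change 0.80, beside -0.12 over all genes). Over all genes, 15.5% rose and 18.1% fell at that time. Hars rose from 25.5 ± 4.27 to 69.7 ± 1.86 CPM (log2 fold change 1.45 ± 0.14, edgeR adjusted p = 1.23e-07) and Yars from 41.0 ± 3.78 to 106 ± 3.93 CPM (1.37 ± 0.13, adjusted p = 9.12e-08). At chronic 24h, 13 of the 21 rose and none fell (median 0.60), beside 17.1% and 14% of all genes. They were led by Vars (1.28 ± 0.32) and Iars (1.13 ± 0.20). Alternative fits left 12 to 14 genes higher at acute 24h and 9 to 14 at chronic 24h, with none lower under any of them. Leaving out acute 24h replicate 3 left 9 at acute 24h, and leaving out chronic 24h replicate 3 left 9 at chronic 24h.

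At later times fewer charging genes passed as higher. At acute 72h, 2 of the 21 were higher and none lower, although alternative fits gave between 1 and 9 higher. At acute 7d, 2 were lower (Farsa, -0.92 ± 0.26, and Wars, -0.44 ± 0.13 on the log2 scale), at chronic 72h 1 was lower (Wars, -0.51 ± 0.13), and at chronic 14d none passed in either direction. Of all genes, 13.1% were higher and 8.81% lower at acute 72h, and 13.1% and 10.6% at acute 7d. The shares were 11% and 9% at chronic 72h and 5.12% and 3.49% at chronic 14d. Directly, 14 of the 21 were lower at acute 7d than at acute 24h, beside 17.4% of all genes, and 12 at chronic 14d than at chronic 24h, beside 12.9%. None of the 21 was higher in either comparison, beside 22.6% and 10.1% of all genes. Within the less deep libraries, which left 2 chronic 24h libraries, 4 were lower at chronic 14d, beside 1161 of 18758 genes tested. When replicate 4 of either group was left out, 8 were lower.

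Amino acid transporters (11 of 12 listed were tested) had 7 genes higher and 1 lower at acute 24h and 9 higher and none lower at chronic 24h, with median log2 fold changes of 1.03 and 1.26. Of all genes, 15.5% were higher and 18.1% lower at acute 24h, and 17.1% and 14% at chronic 24h. Slc7a5, the light chain of the large neutral amino acid transporter LAT1, rose from 8.02 ± 2.26 to 68.4 ± 34.9 CPM at acute 24h (log2 fold change 3.09 ± 0.29, edgeR adjusted p = 5.13e-08) and passed as higher in all 6 comparisons with healthy, down to 0.93 ± 0.26 at chronic 14d (adjusted p = 0.029). The chronic 14d call was lost with depth as a term, on the 2 groups alone and without healthy replicate 1 or 2 or chronic 14d replicate 1 or 3. Its partner Slc3a2 rose by 1.05 ± 0.24 and 1.02 ± 0.23 on the log2 scale at acute and chronic 24h. Slc43a1, another neutral amino acid carrier, rose by 1.73 ± 0.32 and 2.22 ± 0.31.

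Other transporters changed direction over time. Slc7a11, the cystine importer that supplies glutathione synthesis, was higher at acute 24h (0.71 ± 0.20) and lower at acute 7d (-0.86 ± 0.19, edgeR adjusted p = 0.00177) and at chronic 72h (-0.82 ± 0.19, adjusted p = 0.00317). Slc7a1, an arginine and lysine carrier, likewise rose at acute 24h (1.48 ± 0.29) and was lower at acute 7d (-1.43 ± 0.28) and chronic 72h (-1.26 ± 0.28). In total the list had 4 higher and none lower at acute 72h, 6 higher and 2 lower at acute 7d, 7 higher and 2 lower at chronic 72h and 3 higher and none lower at chronic 14d. Of all genes, 13.1% were higher and 8.81% lower at acute 72h, and 13.1% and 10.6% at acute 7d. The shares were 11% and 9% at chronic 72h and 5.12% and 3.49% at chronic 14d. At chronic 14d 9 of the 11 were lower than at chronic 24h and none was higher, beside 12.9% and 10.1% of all genes. Within the less deep libraries, 4 of the 11 were lower, beside 1161 of 18758 genes tested. The numbers higher than healthy fell to 4 at chronic 72h and 0 at chronic 14d when only the 2 groups were fitted, and to 3 and 0 without healthy replicate 1.

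**Figure D3:**
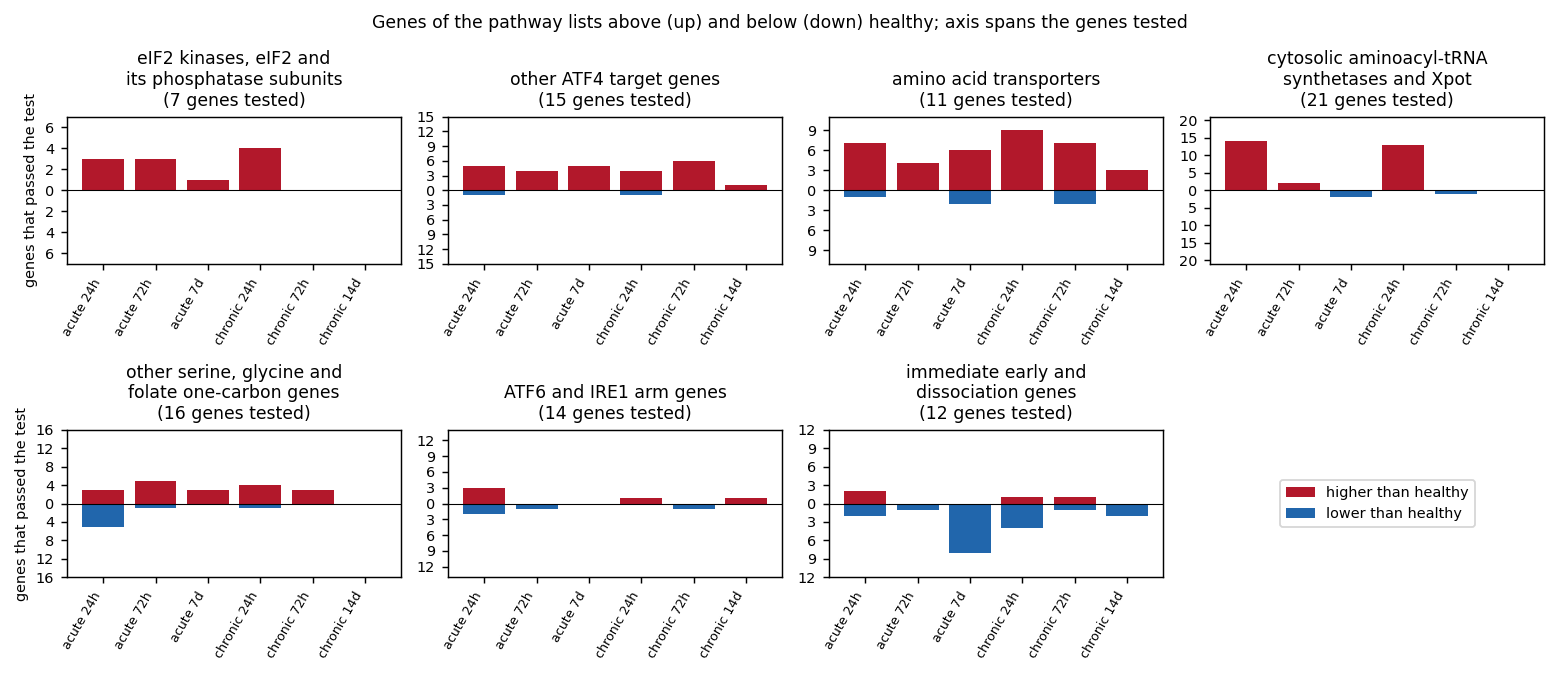
Number of genes of each pathway list that passed as higher (upward bars) or lower (downward bars) than healthy in the 6 injured groups, with axes spanning the number of genes tested. The bars of the tRNA synthetases reach 14 at acute 24h and 13 at chronic 24h and at most 2 at the other times.

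Of 16 other serine, glycine and folate genes, 3 rose and 5 fell at acute 24h, beside 15.5% and 18.1% of all genes. Mthfd1l, a mitochondrial folate enzyme that works beside SHMT2, rose from 3.00 ± 0.699 to 17.5 ± 3.41 CPM (log2 fold change 2.54 ± 0.38, edgeR adjusted p = 1.6e-05) and was also higher at acute 72h (2.52 ± 0.36), acute 7d (1.75 ± 0.35), chronic 24h (1.90 ± 0.36) and chronic 72h (1.02 ± 0.35). The chronic 72h call was lost in 5 of 9 alternative fits and on leaving out any of 6 of the 8 libraries, all but healthy replicate 4 and chronic 72h replicate 3. Mthfd2, its partner in mitochondria, which was picked after its values were seen, rose from 2.79 ± 1.07 to 24.4 ± 3.68 CPM at acute 24h (3.12 ± 0.42, adjusted p = 5.78e-06). Psph, the last enzyme of serine synthesis after PHGDH and PSAT1, had a log2 fold change of 0.07 ± 0.24 at acute 24h and -0.36 ± 0.22 at chronic 24h and passed at neither.

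Among the genes of this list that fell at acute 24h were Shmt1, Aldh1l1, Cbs and Gldc. Hepatocytes express these genes strongly, and they fell beside the hepatocyte markers, of which 7 of 8 were lower at acute 24h with a median log2 fold change of -3.47. Cbs fell by 4.95 on the log2 scale (SE 0.87) and Aldh1l1 by 2.98 (SE 0.69). Aldh1l1 was also lower at chronic 24h (-2.12 ± 0.59, edgeR adjusted p = 0.00877), when 1 of the 8 hepatocyte markers was lower. That call was lost on the 2 groups alone and without healthy replicate 4. The part of hepatocyte RNA in these differences was not tested. At acute 72h the list had 5 higher, among them Tyms, which makes thymidylate, and 1 lower (Cbs), at acute 7d 3 higher and none lower, at chronic 24h 4 higher and 1 lower, at chronic 72h 3 higher and none lower and at chronic 14d none in either direction. Of all genes, 13.1% were higher and 8.81% lower at acute 72h, and 13.1% and 10.6% at acute 7d. The shares were 17.1% and 14% at chronic 24h, 11% and 9% at chronic 72h and 5.12% and 3.49% at chronic 14d.

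**Figure D4:**
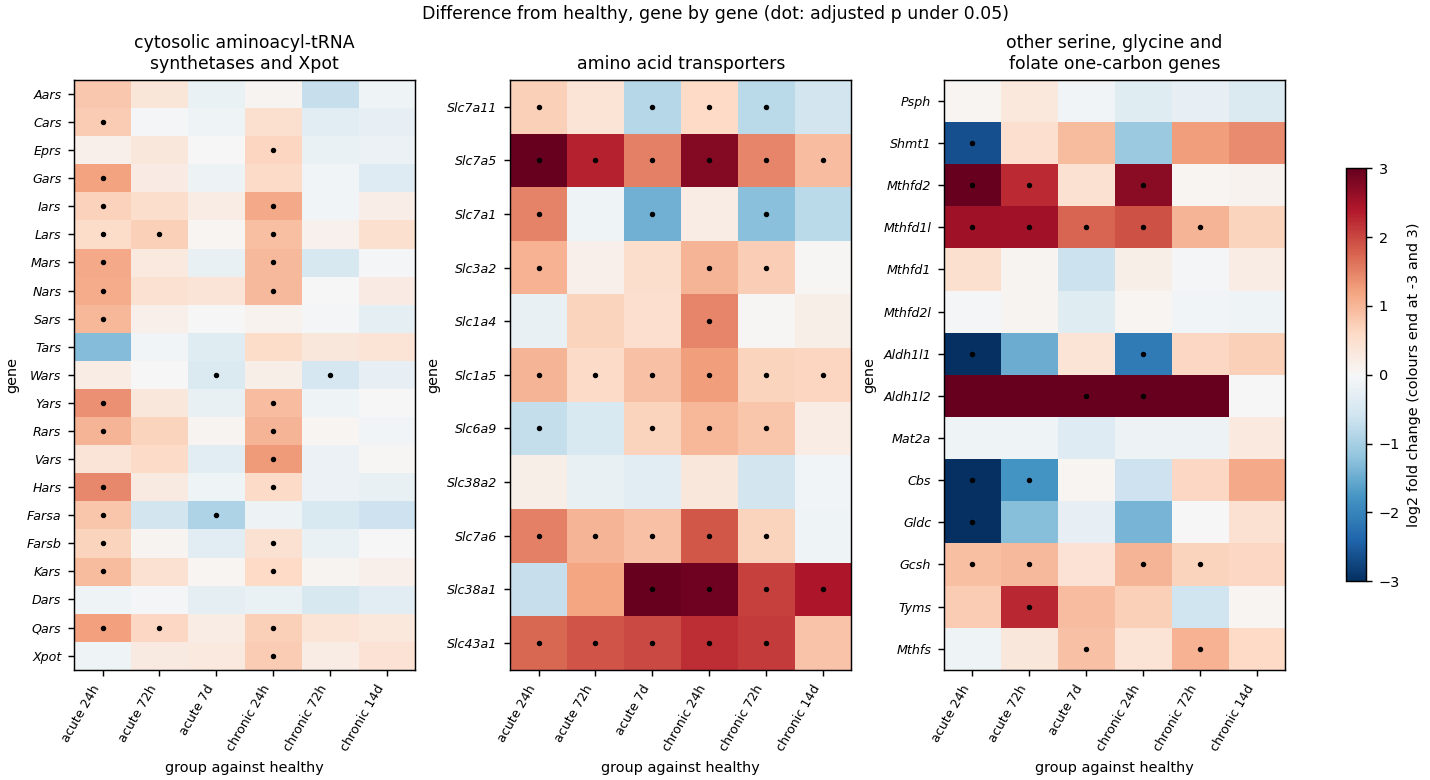
Log2 fold change against healthy (colour, ending at -3 and 3) of genes for transfer RNA charging, amino acid transport and serine, glycine and folate metabolism in the 6 injured groups, with a dot where the edgeR adjusted p was under 0.05. Most dots of the charging genes lie in the acute 24h and chronic 24h columns, while Slc7a5 and Slc1a5 have a dot in every column. Aldh1l2 had no count in healthy HSCs, and the size of its change cannot be read from the colour.

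Of 15 other known ATF4 targets, 5 rose and 1 fell at acute 24h (median log2 fold change 0.11), beside 15.5% and 18.1% of all genes, 4 rose and none fell at acute 72h, 5 and none at acute 7d, 4 and 1 at chronic 24h, 6 and none at chronic 72h and 1 and none at chronic 14d. Of all genes, 13.1% rose and 8.81% fell at acute 72h, and 13.1% and 10.6% at acute 7d. The shares were 17.1% and 14% at chronic 24h, 11% and 9% at chronic 72h and 5.12% and 3.49% at chronic 14d. The 6 at chronic 72h became 2 to 8 under alternative fits, and 1 without healthy replicate 1. Nupr1, a small stress inducible chromatin protein, rose from 3.45 ± 0.556 to 24.9 ± 3.17 CPM at acute 24h (2.85 ± 0.33, edgeR adjusted p = 8.09e-07) and passed as higher in all 6 comparisons, down to 1.25 ± 0.31 at chronic 14d, a call lost without chronic 14d replicate 3. Ddit4, an inhibitor of mTORC1, rose at acute 24h (2.48 ± 0.28) but not at chronic 24h (0.02 ± 0.26), and was lower at chronic than at acute 24h in the direct test. Aldh18a1, which makes proline precursors, was higher at chronic 24h (2.13 ± 0.21, adjusted p = 8.59e-08), and higher at chronic than at acute 24h in that direct test. It also passed as higher at acute 24h (0.90 ± 0.22), acute 72h (1.70 ± 0.21), acute 7d (1.54 ± 0.21) and chronic 72h. Atf3, which ATF4 can induce, did not pass at acute 24h (-1.01 ± 0.48). Cth, which makes cysteine and is abundant in hepatocytes, fell by 5.53 on the log2 scale at acute 24h (SE 1.17), when 7 of 8 hepatocyte markers were lower. It was also lower at chronic 24h (-2.29 ± 0.84, edgeR adjusted p = 0.0415), when 1 of the 8 markers was lower. The chronic 24h call was lost with no filter and without healthy replicate 4 or chronic 24h replicate 3 or 4. The part of hepatocyte RNA in the Cth level was not tested.

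The 2 other arms of the unfolded protein response, which run through ATF6 and IRE1 and raise chaperones of the endoplasmic reticulum, were followed through 14 genes. At acute 24h 3 rose (Dnajb9, Atf6 and Ern1) and 2 fell (Pdia4 and Sel1l), beside 15.5% and 18.1% of all genes. At chronic 24h Edem1 alone rose (0.81 ± 0.24) and none fell, beside 17.1% and 14% of all genes. Hspa5, the chaperone BiP, had a log2 fold change of 0.33 ± 0.35 at acute 24h and 0.80 ± 0.33 at chronic 24h and passed at neither (edgeR adjusted p = 0.503 and 0.0655). At acute 72h none was higher and 1 lower, at acute 7d none passed, at chronic 72h none was higher and 1 lower and at chronic 14d 1 was higher and none lower. Of all genes, 13.1% were higher and 8.81% lower at acute 72h, and 13.1% and 10.6% at acute 7d. The shares were 11% and 9% at chronic 72h and 5.12% and 3.49% at chronic 14d. Fitted on the 2 groups alone, Edem1 did not pass at chronic 24h, and leaving out single libraries gave 0 to 4 genes higher there.

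Tissue digestion and sorting can induce stress genes, so 12 immediate early and dissociation genes were counted as well. They were abundant in every group. Fos, for example, was read at 9400 ± 650 CPM in healthy and 9730 ± 1870 CPM in acute 24h HSCs. At acute 24h 2 of the 12 were higher (Ier3 and Nr4a1) and 2 lower (Jun and Zfp36), at chronic 24h 1 higher and 4 lower, at acute 72h none higher and 1 lower, at acute 7d none higher and 8 lower, at chronic 72h 1 of each and at chronic 14d none higher and 2 lower. Of all genes, 15.5% were higher and 18.1% lower at acute 24h, and 17.1% and 14% at chronic 24h. The shares were 13.1% and 8.81% at acute 72h and 13.1% and 10.6% at acute 7d. They were 11% and 9% at chronic 72h and 5.12% and 3.49% at chronic 14d. Jun was lower than healthy in all 6 comparisons, by 0.54 to 1.40 on the log2 scale. Its calls at acute 24h and chronic 14d were lost without healthy replicate 2 or 3, acute 24h replicate 1 or 3 or chronic 14d replicate 3 or 4, and in 1 and 4 of 8 alternative fits. The part of digestion in the levels of the 10 genes was not tested.

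The genes nearest in pattern were found by Pearson's correlation of log2 CPM over the 27 libraries, which share groups and depth, and are given as a description. Nearest to Atf4 were Gm16437 (r = 0.93), Rabggtb (0.91) and Nop56 (0.91), to Psat1 Ppil1 (0.91), Gm6169 (0.90) and Hdgf (0.90) and to Asns Gfpt2 (0.89), Gm5637 (0.88) and Cd3eap (0.88). For Atf5 they were Pus1 (0.83), Aprt (0.81) and Gm12396 (0.81), for Shmt2 Tor2a (0.81), Tradd (0.79) and Zdhhc12 (0.78) and for Sesn2 Nfkbil1 (0.86), Plekhm2 (0.79) and Epn1 (0.77). The nearest genes of Ddit3, Trib3, Chac1 and Phgdh reached 0.75, 0.66, 0.73 and 0.69. Among the 20 nearest of each of the 10 genes, members or listed pathway genes occurred for Atf5 (Shmt2 and Slc3a2) and for Shmt2 (Atf5), and 0.816% of the 10293 genes compared were on a list.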

How the data were processed

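Bulk RNA sequencing libraries of sorted mouse HSCs were analysed from the table of raw counts deposited by the authors (53379 Ensembl genes in 27 libraries). Per the study's methods, the authors checked and trimmed 75-base single-end reads with FastQC, aligned them to GRCm38 with STAR, assembled genes with StringTie and generated the deposited whole-number counts. Tool versions, strand setting and the step from assembly to counts were not given in the sources used here, so that reads shared by overlapping or near-identical genes may have been split or lost. Library totals of 6314801 to 13052838 counts limit the precision of genes with few reads.

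Counts were tested with edgeR 4.0.16 in R 4.3.3 (TMM, filterByExpr by group, robust quasi-likelihood fit on group means), and calls needed a Benjamini-Hochberg adjusted p under 0.05. The study's DESeq2 (1.42.0 here) was an alternative, besides other scalings and filters, depth and replicate terms, pairwise fits, a fold minimum of 2 and each library left out. The procedure was tested on simulated data. Lower bounds took 3 counts over a group and left out the spread between libraries, and ratios took exact 95% intervals. The 10 genes, the 7 pathway lists and the 10 marker lists were chosen with earlier results of these data known. Named list genes were those with the 2 highest and 2 lowest log2 fold changes among genes passing at a mean log2 CPM of at least 3, besides genes named as examples with their values. Gene positions and exon lengths came from GENCODE M21 (GRCm38), and promoter windows from RefSeq. Replicate libraries differed by more than counting noise and were counted separately. Some genes on the lists are counted but not reported here by name.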

Additional observations from a re-analysis of the deposited data

Results flagged for a closer look

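Among 58 sets of 4 libraries in which a gene was checked for a library far from the rest, 8 stood apart. Chance alone gives about 1 in 20 for continuous values. That rate does not hold where the other libraries are all at 0, since any count then stands apart. Atf5 was low in healthy replicate 4 (4.77 CPM, others 7.33 to 7.80) and in acute 7d replicate 2 (7.05, others 10.3 to 10.7), and high in chronic 72h replicate 4 (16.9, others 9.42 to 10.7), the library that also held the highest Ddit3 level. Ddit3 was high in chronic 14d replicate 2 (33.7 CPM, others 24.7 to 25.7) and Chac1 in chronic 72h replicate 4 (1.96 CPM, others 0.389 to 0.571). For Asns in healthy replicate 3 (0.253 CPM) and chronic 14d replicate 2 (0.921 CPM) and for Phgdh in acute 7d replicate 4 (0.613 CPM), the other libraries of the group were at 0.

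The response of Atf4 at 24 h differed between chronic and acute injury. Both were set against the same healthy libraries, and the direct edgeR test gave a log2 difference of -0.82 (adjusted p = 0.00812), with 4 of 4 chronic libraries below all acute ones. Among the deeper libraries, which left 2 chronic 24h libraries, the log2 difference was -0.70 ± 0.30 (edgeR adjusted p = 0.126).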

How the results depend on the processing

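No sign change touched a call. Under 8 or 9 alternative fits a comparison, the 6 genes higher at acute 24h and the 4 at chronic 24h stayed within 1.5 times in number. At acute 72h (2 higher), 1 was left with no filter, with a mean CPM filter of 1 and on the 2 groups alone. The mean CPM filter removed Phgdh and Chac1, which were then not tested. At chronic 72h (1 higher), library size alone and DESeq2 gave 2, and no filter, the 2 groups alone and a fold minimum of 2 gave 0. At chronic 14d (1 higher), library size alone gave 2, and no filter, depth as a term and the 2 groups alone gave 0. Between acute 7d and acute 24h (3 lower), the 2 groups alone gave 5. Between chronic 14d and chronic 24h, DESeq2 called 1 higher (Trib3) instead of 0, and 2 were lower instead of 1 within the less deep libraries. Between chronic 24h and acute 24h (1 lower), the deeper libraries alone and a fold minimum of 2 gave 0. The fits within a depth class were chosen after seeing the data, and the other causes were not tested. Scaling by library size alone put the middle log2 fold change over the genes tested above 0.1 in 6 comparisons, at most at 0.177 between chronic 14d and chronic 24h. At acute 24h it gave -0.123, where TMM gave -0.117.

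The labels do not say whether same-numbered libraries belong together. Such libraries correlated by -0.172 to 0.149 in their deviations from the group means, and 7 of 33 pairs exceeded 0.1. Differently numbered libraries were not compared, so that these values do not decide whether libraries are paired by number. With a replicate block, 2 genes instead of 1 were lower at chronic 14d than at chronic 24h, and 5 instead of 4 were higher at chronic 24h than in healthy HSCs.

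With each library left out in turn, the genes called were 4 to 6 higher at acute 24h, 1 to 2 at acute 72h, 4 to 5 at chronic 24h, 0 to 2 at chronic 72h and 0 to 1 at chronic 14d. They were 2 to 4 lower between acute 7d and acute 24h, and 0 to 1 higher and 1 to 3 lower between chronic 14d and chronic 24h.

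Log2 fold changes near 0 changed sign in 18 alternative fits, none of them for a gene that had passed. Ddit3 at acute 24h was -0.00 with DESeq2 size factors and -0.01 with DESeq2, and Chac1 at acute 7d was 0.06 with library size alone and 0.06 with the replicate block. With depth as a term, Ddit3 and Sesn2 at chronic 24h were -0.05 and -0.00, Sesn2 at chronic 72h -0.14 and Psat1 at chronic 14d -0.07. Within a depth class, Ddit3, Trib3 and Sesn2 at chronic 24h were -0.26, -0.05 and -0.22. Ddit3 between acute 7d and acute 24h was -0.01 with the replicate block. Between chronic and acute 24h, Atf5 was 0.07 with depth as a term and 0.02 within a depth class, and Ddit3 was -0.05 with no filter, -0.04 with the block, -0.07 with depth and -0.28 within a depth class.

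Leaving out single libraries changed the sign of 21 log2 fold changes that had not passed. At acute 24h Ddit3 ranged from -0.15 to 0.22. At acute 72h the ranges were -0.05 to 0.33 for Atf4, -0.11 to 0.19 for Ddit3, -0.06 to 0.71 for Trib3 and -1.04 to 0.62 for Chac1. At acute 7d they were -0.29 to 0.07 for Atf4, -0.24 to 0.24 for Ddit3, -0.47 to 0.77 for Chac1 and 0.0 to 4.2 for Phgdh, whose lowest value is a comparison of zeros. At chronic 24h they were -0.14 to 0.16 for Ddit3 and -0.7 to 0.72 for Chac1, at chronic 72h -0.51 to 1.15 for Chac1 and -0.08 to 0.29 for Sesn2, and at chronic 14d -2.72 to 4.36 for Asns and -0.05 to 0.42 for Shmt2. Between acute 7d and acute 24h they were -0.26 to 0.22 for Ddit3 and -1.01 to 0.66 for Trib3. Between chronic and acute 24h they were -0.16 to 0.04 for Atf5, -0.17 to 0.2 for Ddit3, -1.61 to 0.38 for Trib3 and -1.1 to 1.04 for Phgdh. Asns, Phgdh, Trib3 and Chac1 rest on few reads, and differences in them may not be detectable at this depth.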

Other observations

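Over the 27 libraries, some of the 10 genes moved more alike than others, which is given as a description because the libraries share groups. Pearson's r of log2 CPM was 0.77 between Asns and Shmt2, 0.76 between Atf5 and Asns, 0.73 between Atf4 and Atf5 and 0.73 between Atf4 and Asns. It was 0.67 between Trib3 and Chac1 and 0.66 between Psat1 and Phgdh, but 0.30 between Atf4 and Psat1, 0.25 between Atf4 and Ddit3 and 0.02 between Atf4 and Trib3.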
